A study of Mus musculus with 12 samples.

Results

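The 9 genes described here encode proteins of the actin cytoskeleton. They are 3 tropomyosins (Tpm1, Tpm2 and Tpm4), caldesmon (Cald1), filamin A (Flna), alpha-actinin 1 (Actn1), the LIM-domain proteins Csrp1 and Pdlim7, and vinculin (Vcl). They were chosen by symbol, with earlier results of these data known. Each of the 9 was found among the 20620 genes of the deposited count table and passed the filter on low counts. RNA was sequenced from aortic valves of mice at postnatal day 10, in 12 libraries that fall into 3 groups of 4. One group is labelled Notch1+/-;Gata5-/- (called Gata5-null-labelled pools below), one Notch1+/-;Gata5+/- (double-heterozygous-labelled pools), and the third wildtype. A library was made from 3 valves pooled before sequencing, and n = 4 therefore counts pools. Both mutant groups carry the Notch1+/- label, so no group differs from wildtype at Gata5 alone or at Notch1 alone. The labels give neither the kind of allele, the strain nor the sex of the animals. They do not say whether pools of a group came from separate litters or days, so p-values measure the spread between these pools.

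Library totals ran from 13866604 to 25059653 counts. Gata5 had no count in any Gata5-null-labelled library, 15 to 112 counts in the double-heterozygous-labelled libraries and 18 to 56 counts in wildtype libraries. Notch1 averaged 185 CPM ± 29.5 in Gata5-null-labelled pools, 172 CPM ± 20.6 in double-heterozygous-labelled pools and 128 CPM ± 26.4 in wildtype pools (SD, n = 4 each). Its mean was therefore not lower under the Notch1+/- label, and with the kind of Notch1 allele not given, this does not check that genotype. CPM are counts scaled to a common library total after TMM normalization, which adjusts totals for composition. A pair of libraries stood apart: 6000 deposited genes were at 0 in Gata5-null-labelled replicate 3 and 3208 in wildtype replicate 2, compared with 1017 to 2908 elsewhere. Their mean Spearman correlations with the other libraries across genes were the lowest, 0.891 for the Gata5-null-labelled and 0.923 for the wildtype library, against 0.930 to 0.947 for the rest. By both measures the wildtype library lay close to the rest. The Gata5-null-labelled library lay further off and had the lowest total, 13866604 counts. Collagen and other interstitial cell genes fixed as markers of valve tissue (12 genes, none at 0) summed to 30297 to 34496 CPM, 30632 to 36474 CPM and 27644 to 35494 CPM in Gata5-null-labelled, double-heterozygous-labelled and wildtype pools. Cardiomyocyte genes (17 genes, none at 0) were also abundant, from 25423 to 60680 CPM per library. The pools also differed in sex-linked genes. The 4 Y-linked genes summed to 67 to 192 CPM in Gata5-null-labelled, 90 to 256 CPM in double-heterozygous-labelled and 96 to 198 CPM in wildtype pools. Xist, which is expressed in female cells, ran from 623 to 1554 CPM in Gata5-null-labelled, 1 to 1849 CPM in double-heterozygous-labelled (1 in replicate 4) and 471 to 1464 CPM in wildtype pools.

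Actin filaments carry tension inside cells, and the proteins that bind along them decide how filaments are bundled, anchored and reached by myosin. Tropomyosins are coiled-coil dimers that lie end to end along the filament and control which other proteins reach it. Caldesmon binds actin, tropomyosin and myosin and restrains contraction of smooth muscle and non-muscle cells. Filamin A and alpha-actinin 1 crosslink filaments, and vinculin couples them to adhesion sites at the membrane. In valves, the interstitial cells, the smooth muscle of the adjoining aortic root and neighbouring heart muscle all use members of this set. Many of these genes are textbook targets of serum response factor (SRF), a transcription factor that binds a DNA element called the CArG box.

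Levels can be set against each other only per length, here as CPM per kilobase of merged exons, from a GENCODE annotation of an older build than the files'. By this measure Flna and Tpm1 were the highest and Pdlim7 the lowest in each group. Flna averaged 338 ± 15.8, 365 ± 27.5 and 431 ± 60.1 CPM per kilobase in Gata5-null-labelled, double-heterozygous-labelled and wildtype pools (SD, n = 4 each). Tpm1 averaged 359 ± 101.0 CPM per kilobase in Gata5-null-labelled, 369 ± 109.6 in double-heterozygous-labelled and 371 ± 128 in wildtype pools, so its mean lay above that of Flna in both mutant groups and below it in wildtype. In wildtype pools the order continued with Csrp1 (159.8 ± 25.7), Tpm4 (138 ± 21.0), Actn1 (97.5 ± 20.4), Tpm2 (85.4 ± 15.9), Vcl (61.9 ± 8.90), Cald1 (35.4 ± 5.65) and Pdlim7 (15.6 ± 4.11 CPM per kilobase). The ranges of mean ± SD overlapped for Flna and Tpm1 and for each neighbouring pair from Csrp1 down to Vcl. Those of Cald1 and Pdlim7 lay apart. All genes were measured in the same pools, and differences between genes were not tested, so the order only describes the means. Pdlim7 averaged 10.7 ± 2.34 CPM per kilobase in Gata5-null-labelled pools and 15.0 ± 1.17 in double-heterozygous-labelled pools.

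The promoter windows of 4 members are printed for the genes the results turn on. They are Vcl, with the smallest p against wildtype, Flna, whose libraries did not overlap with wildtype, and Tpm2 and Tpm1, which belong to 1 family and differ in how they varied. Each runs 5′ to 3′ on the gene's strand from 250 bases before to 50 bases after the start in RefSeq (build GRCm38.p6, not the build of the counts). Capitals mark matches, on either strand, to the CArG box, to the GATA factor motif AGATAA, to TGGGAA, the core bound by the Notch partner RBPJ, and to CATTCC, the core bound by TEAD factors.
Vcl, chr14:20929148-20929447, plus strand: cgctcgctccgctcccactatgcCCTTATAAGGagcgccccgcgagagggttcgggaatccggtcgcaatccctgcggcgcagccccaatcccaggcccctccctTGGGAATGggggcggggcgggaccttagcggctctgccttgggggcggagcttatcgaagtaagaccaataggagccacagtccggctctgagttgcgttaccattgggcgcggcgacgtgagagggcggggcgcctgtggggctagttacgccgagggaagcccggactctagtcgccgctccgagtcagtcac
Flna, chrX:74246485-74246784, minus strand: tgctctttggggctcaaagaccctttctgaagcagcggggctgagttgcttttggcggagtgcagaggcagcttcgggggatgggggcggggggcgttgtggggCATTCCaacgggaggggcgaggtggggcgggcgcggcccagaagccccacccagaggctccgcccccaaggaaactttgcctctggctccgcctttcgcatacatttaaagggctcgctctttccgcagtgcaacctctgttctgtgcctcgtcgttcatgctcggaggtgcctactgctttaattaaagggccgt
Tpm2, chr4:43523505-43523804, minus strand: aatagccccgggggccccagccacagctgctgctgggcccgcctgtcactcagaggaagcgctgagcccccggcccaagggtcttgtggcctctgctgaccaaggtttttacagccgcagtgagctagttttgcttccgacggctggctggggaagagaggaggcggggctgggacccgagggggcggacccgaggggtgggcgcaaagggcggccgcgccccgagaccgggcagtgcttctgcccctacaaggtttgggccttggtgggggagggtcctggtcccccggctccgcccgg
Tpm1, chr9:67049164-67049463, minus strand: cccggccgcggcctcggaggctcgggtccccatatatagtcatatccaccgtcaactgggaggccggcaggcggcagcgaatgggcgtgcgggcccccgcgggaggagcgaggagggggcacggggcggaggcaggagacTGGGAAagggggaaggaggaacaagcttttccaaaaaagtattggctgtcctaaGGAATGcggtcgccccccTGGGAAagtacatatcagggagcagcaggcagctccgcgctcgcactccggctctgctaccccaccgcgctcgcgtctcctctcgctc
A CArG box was found in the window of 1 of the 9 members, Vcl, as CCTTATAAGG at -227 to -218. It was in 535 of all 32851 RefSeq windows of this length, or 1.63%. TGGGAA was in windows of Tpm1, Csrp1, Actn1 and Vcl, against 25.6% of all windows, and CATTCC in windows of Tpm1, Cald1, Flna and Vcl, against 14.7%. In Vcl the matches to TGGGAA and CATTCC overlap in the run TGGGAATG. AGATAA was in none of the members' windows and in 11.2% of all windows. The 9 members have 11 windows in all, since Cald1 and Csrp1 have 2 each, and a match is only a match of letters.

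The comparison of Gata5-null-labelled with wildtype pools asks how the members differ between these 2 genotypes. None of the 9 passed the test (edgeR's quasi-likelihood test, Benjamini-Hochberg adjusted p under 0.05 over 19346 genes). With that threshold 5 genes were called, 0.0258% of those tested, all lower in Gata5-null-labelled pools. All 9 members had a mean below wildtype, with a median log2 fold change of -0.35 against -0.04 over all genes, where 53.9% of genes were below 0. At an unadjusted p under 0.05 there were 5 members, Vcl, Tpm2, Flna, Csrp1 and Pdlim7, all lower, against 3.36% of all genes on that side. The 9 were chosen with earlier results of these data known, and they vary in part together. Counts of members set against all genes, here and in the comparisons below, are therefore descriptive and no test of the set. DESeq2 called 1 member, Vcl (log2 fold change -0.57, adjusted p = 0.0234). The sign of Tpm1 and Tpm4 was not stable: without wildtype replicate 3 Tpm1 was at 0.12, and without wildtype replicate 4 Tpm4 was at 0.02. Without both libraries that stood apart, the values were -0.43 for Vcl, -0.36 for Tpm2, -0.33 for Csrp1, -0.27 for Flna and -0.24 for Pdlim7.

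**Figure D1:**
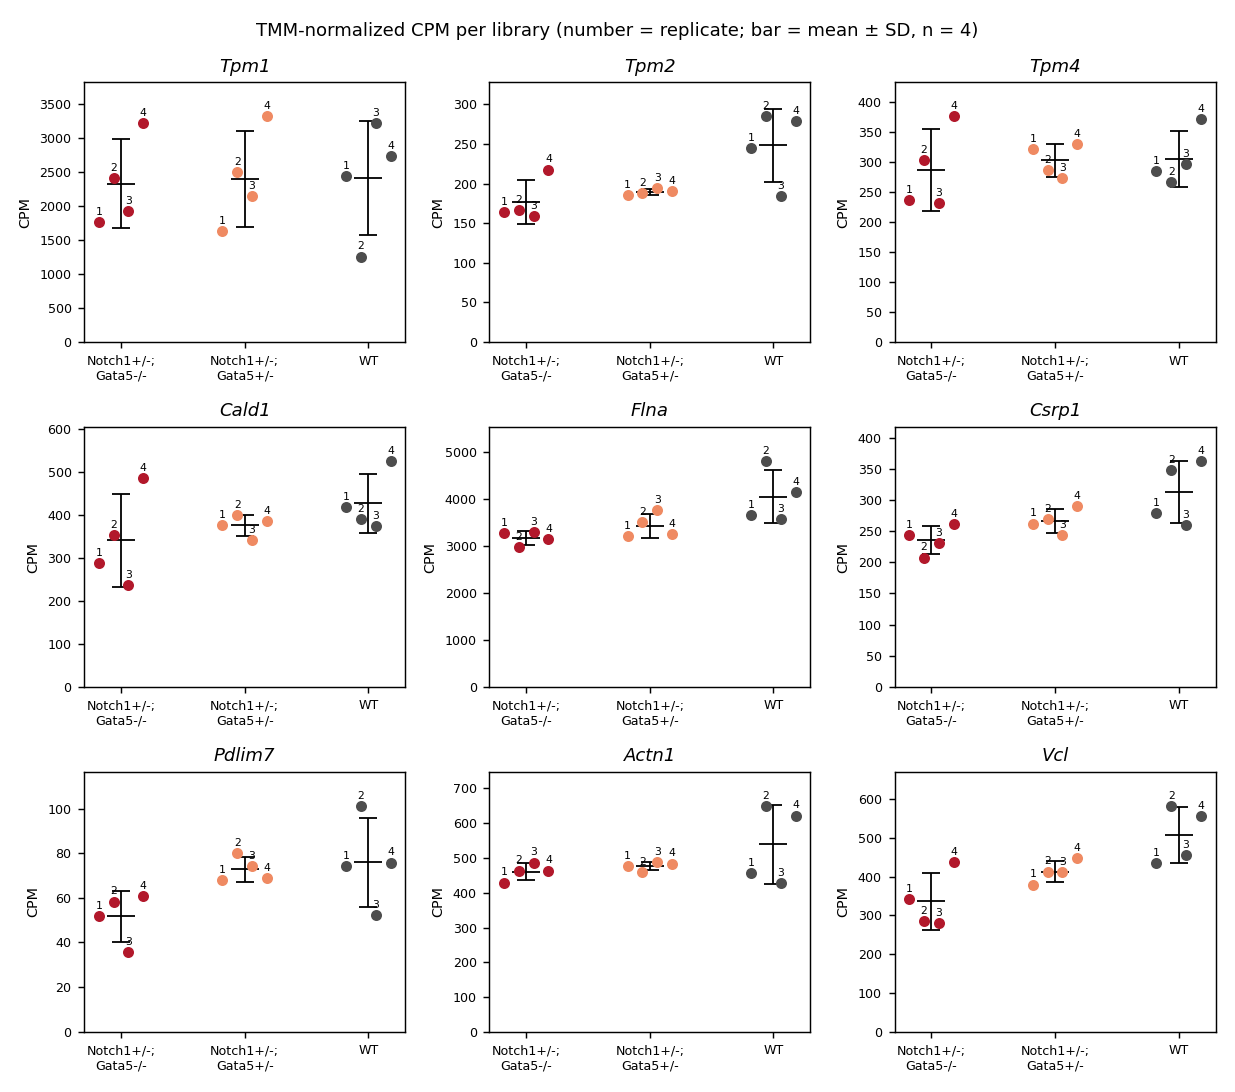
TMM-normalized CPM of the 9 genes in each of the 12 libraries, with the replicate number beside each point and the mean ± SD of 4 pools per group as bars; each y axis starts at 0. Flna in Gata5-null-labelled pools (2981 to 3304 CPM) lies below all wildtype pools (3581 to 4811 CPM), while Tpm1 spreads widely and overlaps in all groups.

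Tpm1 (ENSMUSG00000032366) encodes the tropomyosin that is most abundant in heart muscle and is also spliced into smooth muscle and non-muscle forms, which gene counts do not separate. It had 1759, 2408, 1921 and 3217 CPM in Gata5-null-labelled replicates 1 to 4, 1625, 2493, 2136 and 3315 CPM in double-heterozygous-labelled ones, and 2431, 1253, 3209 and 2732 CPM in wildtype ones. The lowest and the third highest of the 12 values were both wildtype pools, and the 3 groups overlapped throughout. For Gata5-null-labelled against wildtype pools the log2 fold change was -0.05 (SE 0.32, 95% interval -0.75 to 0.65, edgeR adjusted p = 1). Its coefficient of variation was 28.2%, 29.7% and 34.6% in Gata5-null-labelled, double-heterozygous-labelled and wildtype pools, among the highest of the 9 genes. The values of these pools are compatible with a change of Tpm1 anywhere within that 95% interval, in either direction.

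The heart muscle genes in the pools varied with Tpm1. The 17 cardiomyocyte genes summed to 43616, 53675, 41780 and 59682 CPM in Gata5-null-labelled replicates 1 to 4, 31290, 52124, 53885 and 60680 CPM in double-heterozygous-labelled ones, and 48071, 25423, 55457 and 49453 CPM in wildtype ones. Wildtype pools took the same order by this sum and by Tpm1, and the highest pool of each group was the same by both. The full order differed in both mutant groups. Replicates 1 and 3 changed places in Gata5-null-labelled pools, and replicates 2 and 3 in double-heterozygous-labelled pools. In tissue samples such as these, fewer cells of a type and less RNA per cell cannot be told apart. With a cardiomyocyte score as a covariate, the log2 fold change of Tpm1 in Gata5-null-labelled against wildtype pools was 0.002. In that fit Vcl was at -0.59, Tpm2 at -0.48 and Flna at -0.34, against -0.59, -0.49 and -0.35 without the covariate.

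**Figure D2:**
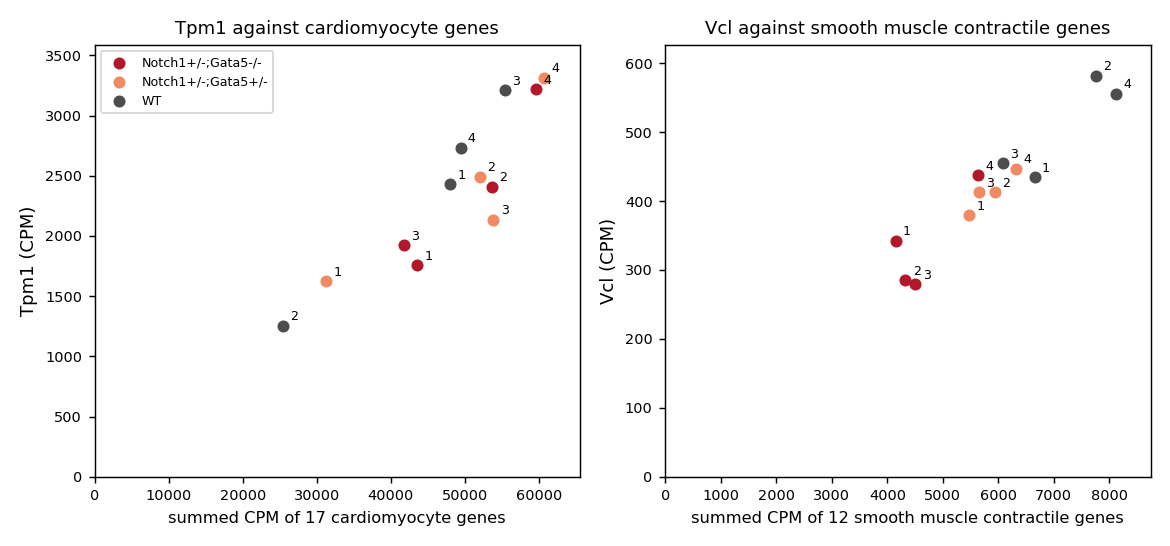
Left, CPM of Tpm1 against the summed CPM of 17 cardiomyocyte genes; right, CPM of Vcl against the summed CPM of 12 smooth muscle contractile genes; each point is 1 of 12 libraries, numbered by replicate. Over all 12 libraries both pairs tend to rise together. In the right panel the Gata5-null-labelled pools (4153 to 5635 CPM on the x axis) lie left of all wildtype pools (6086 to 8127 CPM). Within groups, Vcl took the order of the sum only in double-heterozygous-labelled pools. From Gata5-null-labelled replicate 1 to replicate 3 the sum rose (4153, 4327 and 4508 CPM) while Vcl fell (343, 285 and 279.6 CPM). In wildtype pools replicate 4 was highest by the sum and replicate 2 by Vcl.

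Tpm2 (ENSMUSG00000028464) encodes beta-tropomyosin, a form of smooth and skeletal muscle. It had 164, 167, 159 and 218 CPM in Gata5-null-labelled replicates 1 to 4, 185, 188, 195 and 190.4 CPM in double-heterozygous-labelled ones, and 245, 285, 184 and 279 CPM in wildtype ones. Of the wildtype pools, replicates 1, 2 and 4 lay above all 8 mutant pools, and replicate 3 lay among them. The means were 177 CPM ± 27.4 in Gata5-null-labelled pools and 248 CPM ± 46.3 in wildtype pools (SD, n = 4 each). This is a log2 fold change of -0.49 (SE 0.14, 95% interval -0.78 to -0.20). Its p was 0.00179 before adjustment by edgeR and 0.582 after, and the two-sided exact permutation p was 0.0571, where 0.0286 is the smallest that 4 pools against 4 can give. The double-heterozygous-labelled pools were close to each other, with a coefficient of variation of 2.04%, against 18.6% in wildtype pools.

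Tpm4 (ENSMUSG00000031799) encodes a tropomyosin of non-muscle cells. It had 236, 302, 231 and 376 CPM in Gata5-null-labelled replicates 1 to 4, 320.4, 286, 272 and 329 CPM in double-heterozygous-labelled ones, and 284, 265.5, 296 and 371 CPM in wildtype ones. The groups overlapped, with a log2 fold change of -0.09 for Gata5-null-labelled against wildtype pools (SE 0.15, 95% interval -0.39 to 0.21, edgeR adjusted p = 1). The means were 286 CPM ± 67.7, 302 CPM ± 27.2 and 304 CPM ± 46.3 in Gata5-null-labelled, double-heterozygous-labelled and wildtype pools.

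As a share of all tropomyosin counts (Tpm1, Tpm2, Tpm3 and Tpm4), which needs no scaling between libraries, Tpm1 took 78.7% ± 1.76 in Gata5-null-labelled pools, 77.8% ± 5.24 in double-heterozygous-labelled pools and 76.0% ± 7.92 in wildtype pools (SD, n = 4 each). Tpm2 took 6.14% ± 0.802 in Gata5-null-labelled, 6.49% ± 1.42 in double-heterozygous-labelled and 8.84% ± 4.25 in wildtype pools. Wildtype replicate 2 had both the lowest Tpm1 share, 65.2%, and the highest Tpm2 share, 14.8%, and it also had the lowest cardiomyocyte sum. The shares did not differ beyond the spread between pools (two-sided exact permutation p = 0.686 for Tpm1 and 0.200 for Tpm2, Gata5-null-labelled against wildtype pools, adjusted p = 0.933 and 0.9 over 18 share tests). Tpm3, the other gene of the family, had a log2 fold change of 0.11 (SE 0.15, edgeR adjusted p = 1).

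**Figure D3:**
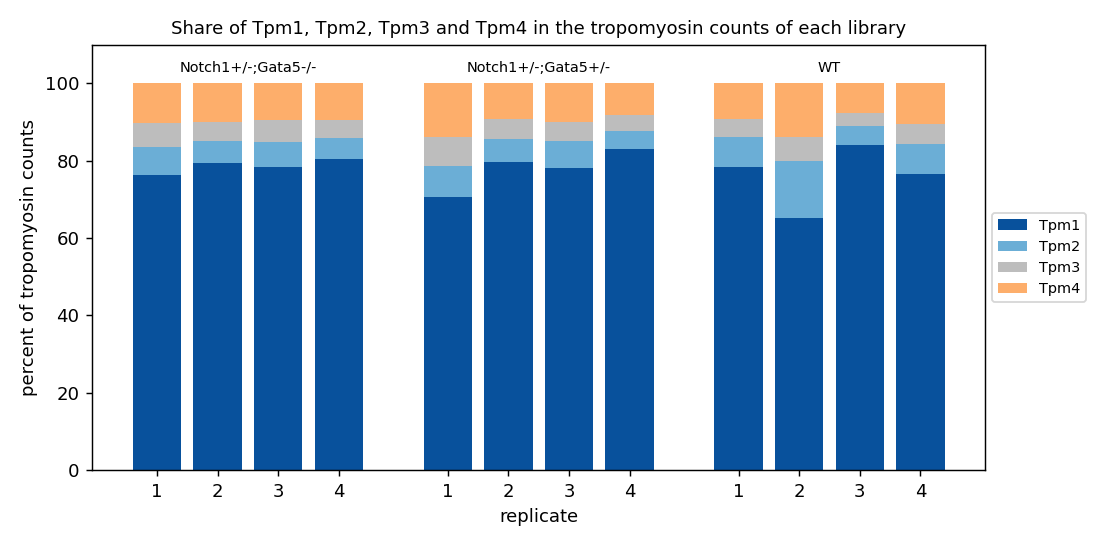
Percent of the tropomyosin counts of each library that fell on Tpm1, Tpm2, Tpm3 and Tpm4, for 4 replicates per group. Tpm1 holds 65.2% to 84.1% of the counts in every library, and the largest Tpm2 share, 14.8%, is in wildtype replicate 2.

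Cald1 (ENSMUSG00000029761), the caldesmon gene, had 287, 353, 237 and 485 CPM in Gata5-null-labelled replicates 1 to 4, 376, 398, 341 and 385 CPM in double-heterozygous-labelled ones, and 418, 389, 374 and 525 CPM in wildtype ones. In Gata5-null-labelled pools the first 3 lay below all wildtype pools and replicate 4 above 3 of them, so the groups overlapped. Its log2 fold change was -0.32 (SE 0.17, 95% interval -0.67 to 0.03, edgeR adjusted p = 0.994). It was -0.54 without Gata5-null-labelled replicate 4 and -0.18 without Gata5-null-labelled replicate 3.

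Flna (ENSMUSG00000031328) encodes filamin A, which joins filaments into networks and ties them to membrane receptors, and whose human gene is known for inherited valve disease. It had 3280, 2981, 3304 and 3149 CPM in Gata5-null-labelled replicates 1 to 4, 3210, 3513, 3765 and 3250 CPM in double-heterozygous-labelled ones, and 3666, 4811, 3581 and 4156 CPM in wildtype ones. Each Gata5-null-labelled pool lay below each wildtype pool, which 1.99% of all genes did, and the double-heterozygous-labelled pools overlapped with both. The means were 3178 CPM ± 148 in Gata5-null-labelled pools and 4054 CPM ± 565 in wildtype pools. On the log2 scale the fold change was -0.35 (SE 0.11, 95% interval -0.57 to -0.13), with an edgeR p of 0.00341, an adjusted p of 0.738 and an exact permutation p of 0.0286, the smallest possible. Its paralog Flnc, a filamin of muscle, had a log2 fold change of -0.31 (SE 0.27, edgeR adjusted p = 1).

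Actn1 (ENSMUSG00000015143) encodes alpha-actinin 1, a crosslinker of stress fibres and adhesions. Its counts came to 429, 464, 487 and 463.5 CPM in Gata5-null-labelled replicates 1 to 4, 477, 459.6, 488 and 484 CPM in double-heterozygous-labelled ones, and 456.5, 649, 429 and 622 CPM in wildtype ones. Wildtype replicates 2 and 4 lay above all other libraries, while replicate 1 lay among the mutant pools and replicate 3 was the lowest of all. The coefficient of variation was 5.15%, 2.64% and 20.9% in Gata5-null-labelled, double-heterozygous-labelled and wildtype pools. The log2 fold change of Gata5-null-labelled against wildtype pools was -0.23 (SE 0.13, 95% interval -0.49 to 0.04, edgeR adjusted p = 1), and -0.11 without wildtype replicate 2. Actn4, its non-muscle paralog, was at -0.15 (SE 0.12, edgeR adjusted p = 1).

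Csrp1 (ENSMUSG00000026421) encodes a LIM-domain protein that binds alpha-actinin and zyxin in smooth muscle and fibroblasts. It had 244, 208, 230.2 and 261 CPM in Gata5-null-labelled replicates 1 to 4, 262, 269.6, 243 and 289.5 CPM in double-heterozygous-labelled ones, and 279, 348, 260.2 and 362 CPM in wildtype ones. A single Gata5-null-labelled pool, replicate 4, lay above the lowest wildtype pool, replicate 3, by about 1 CPM. The log2 fold change was -0.41 (SE 0.13, 95% interval -0.67 to -0.14, edgeR p = 0.0039, adjusted p = 0.738, exact permutation p = 0.0571). Its paralog Csrp2, another LIM protein of smooth muscle, had 313.5 CPM in Gata5-null-labelled and 391.5 CPM in wildtype pools on average, a log2 fold change of -0.32 (SE 0.13, edgeR adjusted p = 0.84). Csrp1 took 43.0% ± 2.94 of the counts of both genes in Gata5-null-labelled pools and 44.2% ± 2.38 in wildtype pools.

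Pdlim7 (ENSMUSG00000021493), or enigma, encodes a PDZ and LIM-domain protein that binds tropomyosin and alpha-actinin on filaments. It had 52.0, 58.35, 35.6 and 60.75 CPM in Gata5-null-labelled replicates 1 to 4, 67.9, 80.2, 74.2 and 68.7 CPM in double-heterozygous-labelled ones, and 74.1, 101.1, 52.4 and 75.8 CPM in wildtype ones. Replicate 3 was the lowest pool of both the Gata5-null-labelled and the wildtype group, and all Gata5-null-labelled pools lay below all double-heterozygous-labelled pools. The log2 fold change of Gata5-null-labelled against wildtype pools was -0.55 (SE 0.19, 95% interval -0.94 to -0.17, edgeR p = 0.00693, adjusted p = 0.839, exact permutation p = 0.0857). Against double-heterozygous-labelled pools it was -0.49 (SE 0.19, 95% interval -0.88 to -0.11, edgeR p = 0.0147, adjusted p = 1, exact permutation p = 0.0286). As a share of PDLIM family counts, Pdlim7 took 8.68% ± 1.26 in Gata5-null-labelled pools and 10.8% ± 0.630 in double-heterozygous-labelled pools (exact permutation p = 0.0286, adjusted p = 0.515).

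Vcl (ENSMUSG00000021823) encodes vinculin, the adhesion protein with the CArG box printed above. It had 343, 285, 279.6 and 437 CPM in Gata5-null-labelled replicates 1 to 4, 379.5, 413, 413 and 447 CPM in double-heterozygous-labelled ones, and 435, 582, 455 and 556 CPM in wildtype ones. Replicate 4 was the highest Gata5-null-labelled pool and the only one above a wildtype pool, replicate 1, by about 2 CPM. The means were 336 CPM ± 73.3, 413 CPM ± 27.7 and 507 CPM ± 72.9 in Gata5-null-labelled, double-heterozygous-labelled and wildtype pools (SD, n = 4 each). For Gata5-null-labelled against wildtype pools the log2 fold change was -0.59 (SE 0.14, 95% interval -0.88 to -0.30), and its edgeR p of 0.000271 ranked 15 among 19346 genes, with an adjusted p of 0.341 and an exact permutation p of 0.0571. Without Gata5-null-labelled replicate 4 it was -0.75 with an adjusted p of 0.0126, past the threshold. In the authors' deposited table, which names no comparison but whose values match this one, Vcl had a log2 fold change of -0.57 with an adjusted p of 0.0218. It was not marked there, where the authors' thresholds were an adjusted p of 0.1 and an absolute log2 fold change of 0.58, and none of the other 8 members was marked among that table's 33 marked genes. In the authors' deposited table Tpm2 had an adjusted p of 0.172, Flna 0.255, Csrp1 0.271 and Pdlim7 0.506.

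**Figure D4:**
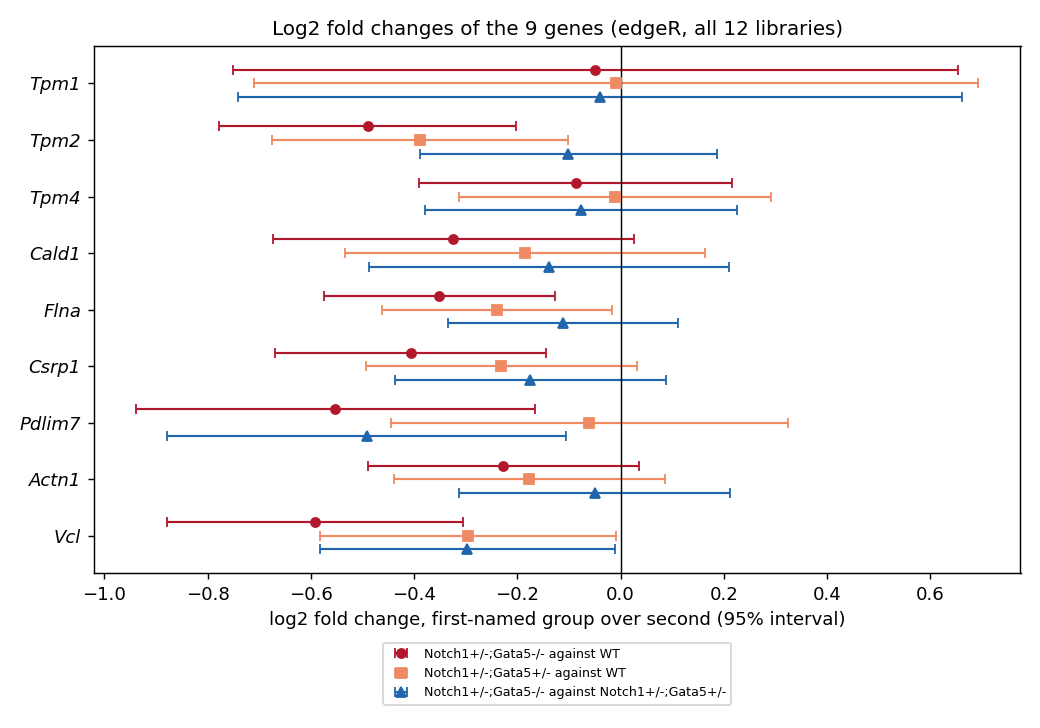
Log2 fold changes of the 9 genes from edgeR with 95% intervals, for Gata5-null-labelled against wildtype pools, double-heterozygous-labelled against wildtype pools and Gata5-null-labelled against double-heterozygous-labelled pools. All points lie below 0; the intervals of Vcl lie below 0 in each comparison, and those of Tpm1 are the widest.

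The comparison of double-heterozygous-labelled with wildtype pools asks how the members differ where 1 Gata5 copy is labelled as present. None of the 9 was called by edgeR or DESeq2, and edgeR called none of the 19346 genes (242 at an unadjusted p under 0.05), where DESeq2 called 1. The median log2 fold change of the members was -0.18, against 0.00 over all genes, and all 9 were below 0, as were 49.7% of all genes. At an unadjusted p under 0.05 there were 3, all lower, against 0.445% of all genes on that side. They were Tpm2 at -0.39 (SE 0.14, 95% interval -0.68 to -0.10, exact permutation p = 0.143), Flna at -0.24 (SE 0.11, exact permutation p = 0.114) and Vcl at -0.30 (SE 0.14, exact permutation p = 0.0571), each with an edgeR adjusted p of 1. The groups overlapped for each of the 9 members, and did not on the lower side for 0.915% of all genes. The count was 1 without any one of wildtype replicates 2 and 4 and double-heterozygous-labelled replicates 1 and 2, and 5 without wildtype replicate 3. Csrp1 was at -0.23, Cald1 at -0.19, Actn1 at -0.18, Pdlim7 at -0.06 (95% interval -0.44 to 0.32), and Tpm1 and Tpm4 at -0.01.

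The comparison of Gata5-null-labelled with double-heterozygous-labelled pools asks about the second Gata5 copy on the same Notch1 label. It shares its Gata5-null-labelled libraries with the first comparison and its double-heterozygous-labelled libraries with the one before, so the 3 are not independent. No member was called by edgeR or DESeq2, and edgeR called no gene (616 at an unadjusted p under 0.05), where DESeq2 called 3. The members' median was -0.11, against -0.04 over all genes, and all 9 were below 0, as were 55.4% of all genes. At an unadjusted p under 0.05 there were 2, Pdlim7 and Vcl, both lower, against 2.08% of all genes on that side. Pdlim7 was also the only member whose groups did not overlap, against 2.03% of all genes on that side. Vcl was at -0.30 (SE 0.14, 95% interval -0.58 to -0.01, edgeR p = 0.0427, exact permutation p = 0.114). Without Gata5-null-labelled replicate 3 neither kept a p under 0.05. For Flna and Tpm2, the values were -0.11 (95% interval -0.33 to 0.11) and -0.10 (95% interval -0.39 to 0.19).

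The smooth muscle contractile genes were set beside the members because Tpm2, Cald1, Csrp1, Vcl and Flna are all strongly expressed in smooth muscle. Of 12 such genes, 11 were below 0 and 1 above in Gata5-null-labelled against wildtype pools. Called by edgeR were 4, all lower. They are 4 of the 5 genes called among all genes tested (0.0258%), so that share is largely the list itself. The lists, like the members, were chosen with earlier results of these data known. Counts within the lists, here and below, are descriptive and no test of a list. An unadjusted p under 0.05 was reached by 8, all lower, against 3.36% of all genes on that side. The 4 were Synpo2, an actin-bundling protein (log2 fold change -0.83, adjusted p = 0.00824), Mylk, the kinase that activates smooth muscle myosin (-0.75, adjusted p = 0.00861), Myh11, the smooth muscle myosin heavy chain (-0.75, adjusted p = 0.0136), and Cnn1, calponin 1 (-0.81, adjusted p = 0.0365, edgeR for each). None of the 12 was called without both libraries that stood apart (median -0.58), with only the 8 libraries compared (-0.61) or with a Y-linked score in the model (-0.53), and 1 was called without wildtype replicate 2, 2 without Gata5-null-labelled replicate 1 or 2, and 7 without replicate 4. The 4 Y-linked genes of that score were all at a lower mean in Gata5-null-labelled than in wildtype pools (median log2 fold change -0.51), none called, and with the score in the model Vcl was at -0.46, Tpm2 at -0.43, Flna at -0.34 and Pdlim7 at -0.52. The list's median was -0.61, further from 0 than the -0.35 of the members. Its summed level was 4153, 4327, 4508 and 5635 CPM in Gata5-null-labelled replicates 1 to 4, 5470, 5937, 5654 and 6317 CPM in double-heterozygous-labelled ones, and 6658, 7757, 6086 and 8127 CPM in wildtype ones. The Gata5-null-labelled pools lay below all wildtype pools, and none of the 12 genes was at 0. Replicate 4 was the highest Gata5-null-labelled pool by this sum and by 7 of the 9 members, but not by Flna and Actn1, which were highest in replicate 3. It was also the highest of its group by the sums of the cardiomyocyte, actin, focal adhesion and filament assembly genes. The same held for the SRF pathway, endothelial, adipocyte and Y-linked genes. Its Y-linked sum was 192 CPM, against 67 to 97 CPM in the rest of the group, and its Xist was the lowest of the group, 623 CPM. The high place of replicate 4 was therefore not particular to smooth muscle genes, though not all of these sums are separate. The smooth muscle actins Acta2 and Actg2 are in both the smooth muscle and the actin list, and the actin and cardiomyocyte lists also overlap. The adipocyte sum was almost all Fabp4, with a mean of 309 CPM in Gata5-null-labelled pools. The means there were 4.4 CPM for Ucp1, 1.9 CPM for Plin1, 0.14 CPM for Adipoq and 0.12 CPM for Cidec. Wildtype replicates 2 and 4 were the highest wildtype pools by this sum as by Vcl, Tpm2, Flna, Csrp1, Actn1 and Pdlim7, but not by Tpm1, Tpm4 and Cald1. By Y-linked genes, wildtype replicate 2 was the highest of its group (198 CPM), and wildtype replicate 4 had 136 CPM. Xist was lowest in wildtype replicate 2 (471 CPM), against 884 CPM in wildtype replicate 4. The parts of the smooth muscle list and of sex in the members' values were not tested. In double-heterozygous-labelled against wildtype pools none of the 12 smooth muscle genes was called, and the median was -0.30. An unadjusted p under 0.05 was reached by 5, all lower, against 0.445% of all genes on that side. In Gata5-null-labelled against double-heterozygous-labelled pools none was called, and the median was -0.34. There 7 had such a p, all lower, against 2.08% of all genes on that side.

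Among the 6 actin genes none was called. Already counted among the smooth muscle contractile genes above are the 2 that had an unadjusted p under 0.05 in Gata5-null-labelled against wildtype pools. They were the smooth muscle actins Actg2 (10.6 CPM in Gata5-null-labelled and 32.5 CPM in wildtype pools on average, log2 fold change -1.61, SE 0.37, adjusted p = 0.341) and Acta2 (970.4 CPM in Gata5-null-labelled and 1443 CPM in wildtype pools, -0.57, SE 0.14, adjusted p = 0.375). The cytoplasmic actins Actb and Actg1 were at -0.15 (SE 0.14) and -0.23 (SE 0.20), both with an edgeR adjusted p of 1. The skeletal actin Acta1 was at 0.72 (SE 0.34, adjusted p = 0.94). Of 17 paralogs and partners of the members, none was called, and the median was -0.12. Of these, 1 (Csrp2) had an unadjusted p under 0.05, on the lower side, against 3.36% of all genes. Tln1, the talin that vinculin binds, was at -0.15 (SE 0.12, adjusted p = 1).

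Of 24 focal adhesion genes none was called, and 16 were below 0, as were 53.9% of all genes, with a median of -0.11. An unadjusted p under 0.05 was reached by 5, all lower, against 3.36% of all genes on that side. The smallest p values were those of the integrin subunit Itga8 (-0.58, SE 0.14, adjusted p = 0.341), the LIM protein zyxin, Zyx (-0.40, SE 0.15, adjusted p = 0.839), Fhl1 (-0.31) and Lpp (-0.26). Of 27 genes of filament assembly and bundling none was called, and the median was -0.05. At an unadjusted p under 0.05 there were 3 on the lower side (3.36% of all genes) and 1 on the higher (2.04% of all genes). The 3 were the myosin light chain Myl6 (-0.33), the non-muscle myosin Myh10 (-0.37) and the filament-severing Dstn (-0.31), and the 1 was Tmsb10 (0.44), a thymosin that binds actin monomers. Of 15 genes of the SRF pathway none was called, 1 was lower (Rhoc, -0.59) and 2 were higher (Ccn1, 0.48, and Fos, 1.38) at an unadjusted p under 0.05, and the median was -0.03. Srf itself was at -0.35 (SE 0.24) and its muscle coactivator Myocd at -0.22 (SE 0.15), both with an edgeR adjusted p of 1.

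Across the 12 libraries the members followed each other to different degrees. As the root mean square difference of log2 CPM, each gene centred on its own mean, the closest pairs were Flna and Actn1 (0.12), Tpm2 and Csrp1 (0.13) and Flna and Csrp1 (0.13). Tpm1 stood apart, with its closest member Tpm4 at 0.34 and its farthest, Pdlim7, at 0.60. Tpm4 lay closest to Cald1 (0.15). By the same measure over 10259 genes, the nearest to Tpm1 were Ndufs1 (0.09) and Dlat (0.09), to Tpm2 C1qtnf6 (0.08) and Col14a1 (0.09), and to Tpm4 Hsp90b1 (0.08). The nearest to Flna were Aoc3 (0.08) and Pcdh7 (0.09), to Actn1 Ltbp1 (0.08) and Tnks1bp1 (0.09), and to Vcl Cpe (0.09) and Stom (0.11). Csrp1 had Niban1 (0.09) and Zyx (0.10), Cald1 had Cdk5rap2 (0.11) and Smc4 (0.12), and Pdlim7 had Rnf26 (0.15) and Zfp839 (0.16). A gene with the same level in every library would lie at about the member's own SD of log2 CPM, which was 0.18 for Actn1 and Flna, 0.21 for Tpm4, 0.22 for Csrp1, 0.27 for Tpm2, 0.29 for Cald1, 0.31 for Vcl, 0.37 for Pdlim7 and 0.42 for Tpm1. These distances are over libraries that share depth, tissue make-up and group, so they describe likeness only.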

How the data were processed

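Messenger RNA was sequenced from 12 pools of aortic valves, 4 per group. The authors deposited raw counts, a whole number per gene and library. The submitters' processing notes name Trim Galore, STAR 2.7.10b, DESeq2 1.34.0 and build GRCm39, with no role or order. Not given in the sources used here are the counting tool, the annotation, the strand setting and the treatment of any reads that related genes share. Gene counts do not separate splice forms. A second file, deposited by the authors, lists for 13959 genes a signal (the mean of normalized counts), a log2 fold change, 2 scores (its standard error and Wald statistic), and p-values before and after adjustment. It names no comparison, and its fold changes differed by at most 0.000166 on the log2 scale from a DESeq2 1.42.0 refit of Gata5-null-labelled against wildtype pools.

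The counts were fitted with edgeR 4.0.16 (R 4.3.3). filterByExpr kept 19346 of 20620 genes and TMM scaled the libraries. The robust quasi-likelihood fit used all 12 libraries and 1 term per group. Benjamini-Hochberg adjustment ran over the 19346 genes, and an adjusted p under 0.05 made a call. Exact permutation tests, two-sided, used log2 CPM (or the share of family counts) over the 35 splits of 4 pools against 4. Intervals at 95% are for the difference between 2 group means and use the model's t distribution. The SE was derived from the log2 fold change and the statistic of the quasi-likelihood test. The only variation both take in is that between these pools. Symbols came from the second file, and for 6077 further identifiers from GENCODE vM21, which also gave exon lengths; promoter sequences are RefSeq's. The 9 members, the gene lists and the tests were chosen with earlier results of these data known. Named genes are the members, their paralogs and, from each list, up to 4 genes with the smallest p against wildtype, and for each member the 2 genes (mean log2 CPM of at least 3) at the smallest root mean square difference. Named outside this rule, after their values were seen, are Actb, Tln1, Srf and Myocd. Alternatives tried were RLE or upper quartile scaling, no filter or a stricter one, DESeq2, limma-voom (limma 3.58.1), only the 8 libraries compared, leaving out single libraries or both that stood apart, the replicate number as a block, and cardiomyocyte or Y-linked scores as covariates. Some items among the paralogs and nearest genes are not reported here.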

Additional observations from a re-analysis of the deposited data

Results flagged for a closer look

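Of 45 groups of 4 libraries examined (the level of each member and the family shares), 1 held a library whose gap to the nearest of the others was over Dixon's critical part of the range, and chance alone flags about 1 in 20. Tpm2 was at 218 CPM in Gata5-null-labelled replicate 4, against 159 to 167 CPM in the other 3 pools of that group, a gap of 0.863 of the range. That pool was also the highest of its group by several summed gene lists, some of which share genes. Its sums were 5635 CPM for smooth muscle contractile, 59682 CPM for cardiomyocyte, 3753 CPM for actin, 6927 CPM for focal adhesion and 1260 CPM for endothelial genes. Y-linked genes summed to 192 CPM in that pool, also the highest of its group, and Xist was the lowest of the group, 623 CPM.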

How the results depend on the processing

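For Gata5-null-labelled against wildtype pools, the 5 genes called by edgeR became 45 with DESeq2, 0 with only the 8 libraries compared (504 at an unadjusted p under 0.05), 0 with the Y-linked score (582), and 2 without both libraries that stood apart. Leaving out single libraries gave 2 (wildtype replicate 2) to 21 (Gata5-null-labelled replicate 4), and 3 for Gata5-null-labelled replicate 1. In this comparison the 0 members called became 1, Vcl, with DESeq2, and 0 to 1 when single libraries were left out. That 1 was Vcl in the fit lacking Gata5-null-labelled replicate 4. For double-heterozygous-labelled against wildtype pools, 0 genes were called, 1 with DESeq2 and 0 without any single library. For Gata5-null-labelled against double-heterozygous-labelled pools 0 genes were called, 3 with DESeq2, 2 without both libraries that stood apart, and 0 to 1 without single ones (1 without Gata5-null-labelled replicate 2, 3 or 4). No member was called in these 2 comparisons under any setting.

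Signs turned for 4 members, none of them called. Tpm1 turned against wildtype in Gata5-null-labelled pools with limma-voom (0.011), the cardiomyocyte score (0.002) and the Y-linked score (0.069), and ranged from -0.25 to 0.12 over single libraries left out. In double-heterozygous-labelled pools it turned with limma-voom (0.036) and the cardiomyocyte score (0.085), with a range of -0.22 to 0.16. Between the mutant groups it turned with the Y-linked score (0.12) and without both libraries that stood apart (0.048), with a range of -0.24 to 0.16. Tpm4 turned with the Y-linked score against wildtype in Gata5-null-labelled pools (0.008, range -0.25 to 0.022) and between the mutant groups (0.051, and 0.021 without both libraries that stood apart, range -0.24 to 0.019), and with the cardiomyocyte score in double-heterozygous-labelled pools (0.005, range -0.073 to 0.10). Without both libraries that stood apart, Pdlim7 turned in double-heterozygous-labelled against wildtype pools (0.11, range -0.20 to 0.11) and Cald1 between the mutant groups (0.007, range -0.36 to 0.003). The cause of these moves was not tested. Against wildtype, Vcl, Tpm2, Flna, Csrp1, Pdlim7, Cald1 and Actn1 were below 0 in Gata5-null-labelled pools under all 23 settings, with Vcl from -0.75 to -0.43.

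With the replicate block, 7, 0 and 0 genes and 0 members were called in the 3 comparisons, and the adjusted p of Vcl against wildtype was 0.0701. Deviations of same-numbered libraries correlated at only -0.03 to 0.10, so at most a weak signal followed the numbers. Such correlations cannot show whether same-numbered pools share a litter or day. At 4 pools per group, the interval of Tpm1 spans -0.75 to 0.65.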
